A study of Mus musculus with 8 samples.

Results

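Solute carriers are membrane proteins that move amino acids, sugars, nucleosides, lipids, vitamins, metals and inorganic ions across the plasma membrane and the membranes of organelles. The expressed solute carrier genes outside the mitochondrial *Slc25* family were followed here in pro-B cells that lack both the miR-15a/16-1 cluster and its paralog, miR-15b/16-2. Members were the rows of the count table with an *Slc* family symbol, leaving out *Slc25a* genes and *Slc20a2*, whose mean over all 8 libraries was at least 1 CPM (reads of a gene in a library scaled to 1000000 counts). Of 376 rows with an *Slc* symbol among 24746 rows, 140 were members. The choice used the mean level over both genotypes together and not the difference between them. It is by symbol, so 5 members that are not carriers themselves came in with the family names, and *Slc* proteins listed under other symbols did not.

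Pro-B cells are bone marrow progenitors in which the heavy chain locus is being rearranged. They were isolated by sorting, and each mouse gave 1 RNA library. Both clusters were floxed in the 4 DKO mice, whose genotype was miR-15a/b fl/fl Vav-Cre. The 4 control mice were miR-15a/b+/+ Vav-Cre. All mice were on a C57BL/6 background and 10 to 12 weeks old, and both groups carried Vav-Cre. This transgene deletes floxed alleles in blood stem cells and so in every blood lineage, so the deletion is not particular to B cells. In bulk RNA, fewer cells of a type and less RNA per cell cannot be told apart.

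Total counts were 38073065 to 43288133 in DKO libraries and 38257907 to 41530921 in control libraries. *Mir16-1*, in a deleted cluster, had 0 reads in every DKO library and 5, 1, 2 and 4 reads in the control libraries. The 11 pro-B markers, most of whose reads came from *Igll1* and *Vpreb1*, summed to 32460 to 35983 CPM in DKO and 30146 to 34164 CPM in control cells, and 2 of them were higher in DKO cells, among them *Il7r*. The 8 neutrophil markers, such as *S100a8* and *Mpo*, were uneven over the mice. They summed to 310 to 610 CPM in DKO mice 1 and 2 and control mice 2 and 3, and to 1793 to 2809 CPM in DKO mice 3 and 4 and control mice 1 and 4, and none passed the test between genotypes. DKO mice 3 and 4 and control mouse 1 were also the 3 libraries with high levels of Y-linked genes, at 161 to 180 CPM in DKO mice 3 and 4 and 166 CPM in control mouse 1, against at most 0.205 CPM in the others. The 4 adult hemoglobin genes had no count in any library. In DKO cells 1 of 3 tested mature B markers, 1 of 2 stromal and endothelial markers and 1 of 10 macrophage markers were lower, beside 1.93% of all genes tested. None of these was higher. The mature B marker *Fcer2a* averaged 0.275 CPM in DKO and 2.20 CPM in control cells, and the stromal *Cxcl12* 1.56 and 4.30 CPM. Their bearing on the members was not tested.

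A microRNA guides its silencing complex to messenger RNAs that pair with its seed, bases 2 to 8, and pairing in the 3' UTR lowers the level or the translation of the message. Loss of a microRNA can therefore raise a direct target, and it can move other genes in either direction at one remove. The 3 mature microRNAs of the deleted clusters are shown because their seed defines the matches searched in the carriers. The sequences are from RefSeq GRCm38.p6 and run 5' to 3', with the seed in capitals. miR-15a is encoded at chr14:61632075-61632096 on the minus strand, miR-15b at chr3:69009775-69009796 on the plus strand, and miR-16 in both clusters, at chr14:61631936-61631957 and chr3:69009918-69009939.
miR-15a-5p: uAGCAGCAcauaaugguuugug
miR-15b-5p: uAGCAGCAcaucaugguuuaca
miR-16-5p: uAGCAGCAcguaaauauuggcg
The seed is the same in all 3, and the carriers below can be compared with 1 set of matches.

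The longest annotated 3' UTR of each member in GENCODE M21 (GRCm38) was searched on the transcript strand for TGCTGCTA (8mer, pairing with the seed plus an A), TGCTGCT (7mer-m8) and GCTGCTA (7mer-A1), and each gene was given its best form, since the 8mer contains the other 2. Of 139 members with an annotated 3' UTR, 44 had a match, which is 31.7% beside 27.9% of the 11810 tested genes with a UTR. The best match was an 8mer in 7 members (5.04%, against 4.47% of tested genes), a 7mer-m8 in 33 (23.7%, against 20.1%) and a 7mer-A1 in 4 (2.88%, against 3.33%). The 7 members with an 8mer carried the strongest form, and their sites are shown, with the match in capitals and flanking bases in lower case.
*Slc39a10*: gctttaacagtTGCTGCTAgtattttgata
*Slc2a3*: ctgcttctgagTGCTGCTAttctcacccca
*Slc30a9*: aagcactcactTGCTGCTAagccagatgac
*Slc4a7*: aagttcccattTGCTGCTAaatataaccct
*Slc38a9*: ccttatcactcTGCTGCTAcggccggcctt
*Slc22a15*: ctggtgcctcaTGCTGCTAcccttcctcgg
*Slc35b3*: agtctaattggTGCTGCTAgtctgtgagtg
The matches lie at chr1:46808054-46808061 (*Slc39a10*, minus strand), chr6:122729829-122729836 (*Slc2a3*, minus), chr5:67357012-67357019 (*Slc30a9*, plus), chr14:14797897-14797904 (*Slc4a7*, plus), chr13:112734101-112734108 (*Slc38a9*, plus), chr3:101860188-101860195 (*Slc22a15*, minus) and chr13:38933572-38933579 (*Slc35b3*, minus) of GRCm38.

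None of the 7 passed the test between genotypes. *Slc39a10*, a zinc importer, came nearest and was at 20.2, 18.4, 19.6 and 20.8 CPM in DKO cells and at 14.4, 18.4, 14.0 and 18.3 CPM in control cells (log2 fold change 0.28, standard error 0.13, adjusted p = 0.242 over all genes tested, quasi-likelihood test in edgeR). *Slc2a3*, a glucose transporter, was at 4.74 to 5.89 CPM in DKO cells and 5.44 to 6.84 CPM in control cells (log2 fold change -0.26). The other 5, *Slc30a9*, *Slc4a7*, *Slc38a9*, *Slc22a15* and *Slc35b3*, had log2 fold changes between -0.12 and 0.14. The *Slc30a9* match lies past the end of that gene in the deposited counts, which is at position 67356142. Of the 44 members with any match, 0 were higher and 0 lower at an adjusted p under 0.05 by edgeR. All 9 members that passed the test were among the 95 with no match, in the shortest annotated 3' UTR as well as in the longest. Over all genes tested, 138 were higher and 52 lower of 3298 with a match in the longest UTR, and 185 were higher and 175 lower of 8512 with none. A UTR form that is not annotated and matches outside the 3' UTR were not searched. *Slc20a2*, which the rule leaves out, is not counted here. In the plot of log2 fold changes by seed match, the medians were 0.03 for members with an 8mer, 0.15 for those with a 7mer-m8, -0.11 for those with a 7mer-A1 and 0.07 for those with none.

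**Figure D1:**
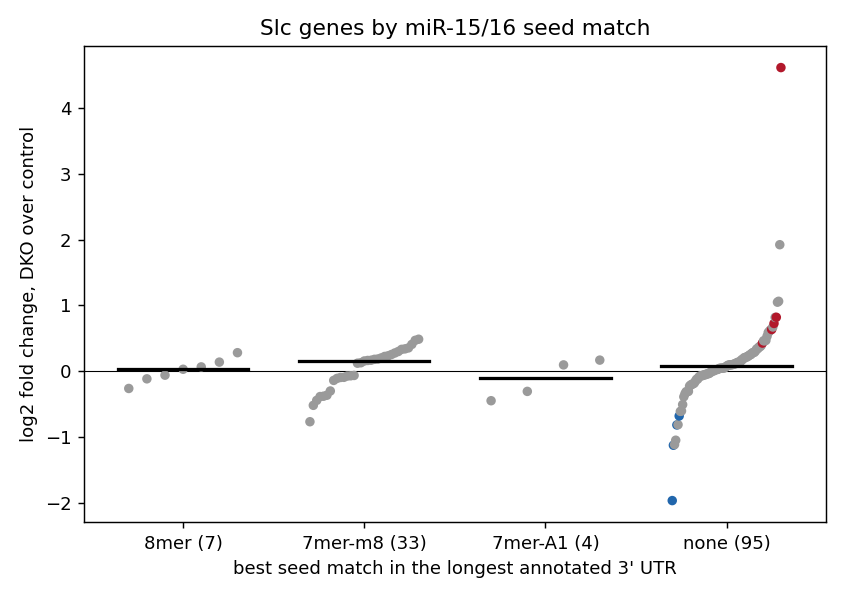
Log2 fold change (DKO over control) of the 139 members with an annotated 3' UTR, by the best miR-15/16 seed match in the longest UTR; each point is 1 gene, red is higher and blue lower in DKO at an adjusted p under 0.05, grey did not pass, and black bars are medians. All coloured points stand in the group with no match.

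The 140 members spanned a wide range of levels. As CPM on TMM library sizes, which is used from here on, 13 had a mean of at least 100 CPM over the 8 mice, 68 lay from 10 to under 100, and 59 were lower. The 10 most abundant members held 45.2% of the summed member CPM. *Slc30a5*, which loads zinc into the early secretory pathway, was the most abundant at 580 ± 61.8 CPM in DKO cells and 448 ± 68.7 CPM in control cells (SD, n = 4 each). It also led when the level was divided by exon length, at 162 CPM per kb over all mice, followed by *Slc1a5* (92.1), the scaffold gene *Slc9a3r1* (90.5), the sugar exporter *Slc50a1* (86.3) and the nucleoside transporter *Slc29a1* (84.7). All members together summed to 4966 to 5207 CPM in DKO libraries and 4295 to 4908 CPM in control libraries, so the groups did not overlap. Control mice 1 and 4 had the low sums, at 4295 and 4363 CPM, against 4908 and 4852 CPM in control mice 2 and 3. The mean sums were 5074 CPM in DKO and 4604 CPM in control cells. Much of the difference lay in *Slc30a5*, with the means above, and *Slc1a5*, at 324 CPM in DKO and 184 CPM in control cells. The spread between mice was larger in control cells for 90 of the 140 members, with a median coefficient of variation of 11.8% in DKO and 18.5% in control cells. Pairs of libraries were also compared over all genes with at least 80 reads in total. Their chi-square per degree of freedom was 20.5 to 66.1 in DKO and 51.8 to 136 in control mice, so wider control spread was not seen in the members alone.

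Between genotypes, 5 members were higher in DKO pro-B cells and 4 were lower at an adjusted p under 0.05, and 131 missed that threshold (quasi-likelihood test in edgeR, p-values adjusted after Benjamini and Hochberg over 12714 genes). Over all genes tested, 2.65% were higher and 1.93% lower, and the members' 3.57% and 2.86% lie near this background. The DKO mice were all above the control mice in 18 members, against 7.63% of all genes tested, and all below in 12, against 6.21%. Their shares of the members were 12.9% and 8.57%. The members' median log2 fold change was 0.08, beside -0.01 over all genes tested. The log2 fold change was above 0 for 85 members and below 0 for 55, with 60.7% above 0 beside 47.6% of all genes tested. Without the 4 libraries of high neutrophil markers it was above 0 for 68 of the 140, an alternative chosen after seeing the data. That fit has 2 mice per genotype and leaves out every library with high levels of Y-linked genes. At an unadjusted p under 0.05 there were 23 members higher and 10 lower, 23.6% of them in all, beside 20.2% of all genes tested. A log2 fold change between -0.5 and 0.5 was found in 115 members, or 82.1%, beside 82.4% of all genes tested. In the plot of fold change against level, the called members had means from 1.47 CPM (*Slc27a2*) to 254 CPM (*Slc1a5*).

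**Figure D2:**
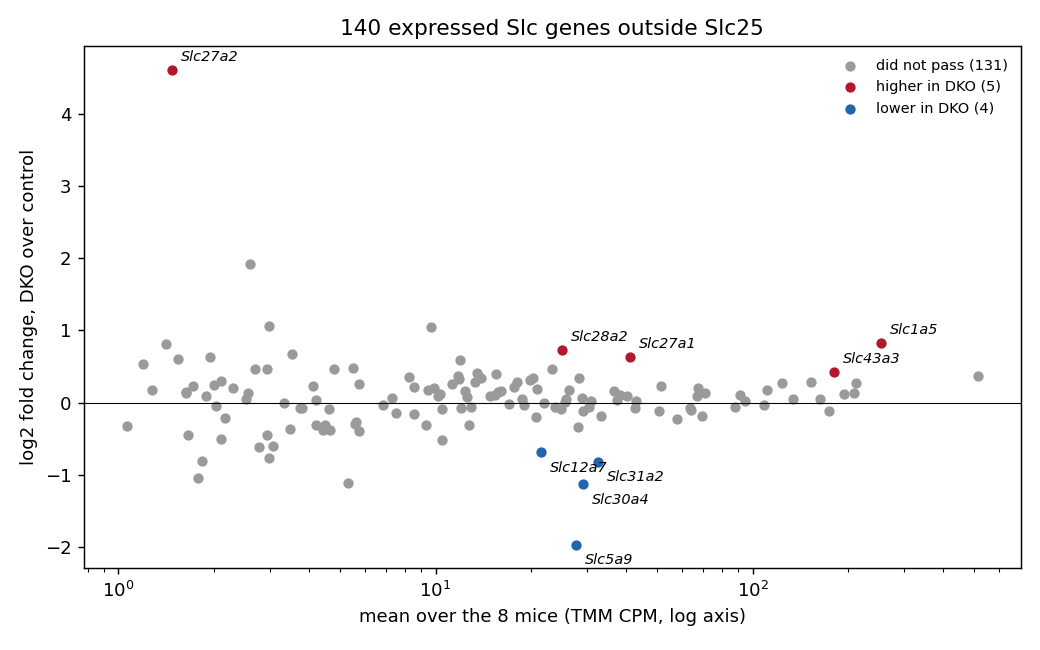
Log2 fold change (DKO over control) of each of the 140 members against its mean over the 8 mice in CPM on a log axis; red points are the 5 members higher in DKO and blue points the 4 lower, grey did not pass. *Slc27a2*, at a log2 fold change of 4.62, and *Slc5a9*, at -1.97, stand apart from the other members.

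Transporters of nucleosides and nucleobases feed the salvage of purines and pyrimidines. They had 2 of 5 members higher and none lower in DKO cells, beside 2.65% and 1.93% of all genes tested. *Slc43a3* (chr2:84936646-84958509, plus strand), a purine nucleobase transporter, was at 199, 187, 212 and 229 CPM in the DKO mice, against 158, 167, 154 and 136 CPM in the control mice. The groups did not overlap (log2 fold change 0.43, standard error 0.09, adjusted p = 0.0301, edgeR). *Slc28a2* (chr2:122426477-122461130, plus strand), a sodium-driven purine nucleoside transporter, was at 24.8, 34.5, 25.8 and 39.3 CPM in the DKO mice, against 17.1, 22.6, 18.8 and 16.8 CPM in the control mice. Every DKO value was again above every control value, and the difference passed the test (log2 fold change 0.73, standard error 0.16, adjusted p = 0.0329, edgeR).

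*Gm14085*, a closely related neighbour of *Slc28a2* on chromosome 2, could share reads with it. It had 1.34, 0.288, 3.46 and 0.134 CPM in DKO cells against 4.57, 5.44, 5.58 and 4.70 CPM in control cells (log2 fold change -1.95, adjusted p = 0.151, edgeR). The sources used here do not say how the counting divided reads between the pair, so the value of *Slc28a2* is uncertain to that extent. *Slc29a1*, the main equilibrative nucleoside transporter of the plasma membrane and the third most abundant member, was at 216 to 253 CPM in DKO and 176 to 207 CPM in control cells without passing the test (log2 fold change 0.27, adjusted p = 0.101, edgeR). The 5 genes summed to 483 ± 19.8 CPM in DKO and 378 ± 26.5 CPM in control cells (SD, n = 4 each), and the sums of the 2 groups did not overlap. The call of *Slc43a3* was lost without any one of DKO mice 1, 3 and 4 and control mice 3 and 4 (adjusted p up to 0.0928, edgeR), and that of *Slc28a2* without DKO mouse 2 or 4 or control mouse 3 or 4 (up to 0.0955, edgeR). Without the 4 libraries of high neutrophil markers neither passed, with log2 fold changes of 0.27 and 0.53 and adjusted p of 0.109 and 0.139 by edgeR. That fit has 2 mice per genotype and leaves out every library with high levels of Y-linked genes. Both calls were kept with a sex term in the fit of all mice.

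Lipid and choline carriers had 2 of 7 members higher and none lower, beside 2.65% and 1.93% of all genes tested. All 7 log2 fold changes were above 0, the smallest at 0.05, beside 47.6% of all genes tested. The larger change of the 2 higher members was in *Slc27a2* (chr2:126553024-126588243, plus strand), a fatty acid transport protein that also activates very long chain fatty acids to their CoA esters. It had 64, 156, 120 and 108 reads in the DKO libraries, which is 1.48, 4.08, 2.86 and 2.89 CPM, against 0, 2, 4 and 12 reads in the control libraries, which is 0, 0.0490, 0.0938 and 0.307 CPM. The gene was thus near the limit of detection in control cells and low but present in every DKO mouse. With so few control reads the size of the fitted change depends on the prior count (log2 fold change 4.62, standard error 0.72, adjusted p = 0.00676, edgeR). *Slc27a2* reached the minimum mean of 1 CPM through its DKO libraries alone, so it had to differ to be a member.

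*Slc27a1* (chr8:71568871-71587307, plus strand), another fatty acid transport protein, was at 42.6, 40.0, 64.4 and 53.2 CPM in the DKO mice, against 33.3, 35.8, 32.9 and 26.9 CPM in the control mice. DKO mice 3 and 4 were the highest, and the groups did not overlap (log2 fold change 0.63, standard error 0.16, adjusted p = 0.0450, edgeR). *Slc44a2*, a choline transporter-like protein with a 7mer-m8 in its 3' UTR, was at 128 to 139 CPM in DKO and 98.2 to 128 CPM in control cells (log2 fold change 0.28, adjusted p = 0.118, edgeR). Leaving out any mouse other than DKO mouse 2 lost the call of *Slc27a1* (adjusted p up to 0.124, edgeR). DKO mice 3 and 4 were also the DKO mice with high neutrophil markers and with high levels of Y-linked genes, and the 2 traits cannot be told apart in them. Control mice 1 and 4, with high neutrophil markers, were at 33.3 and 26.9 CPM, against 35.8 and 32.9 CPM in control mice 2 and 3. Without the 4 libraries of high neutrophil markers the log2 fold change of *Slc27a1* was 0.27 (adjusted p = 0.175, edgeR). With the neutrophil marker sum as a term in the fit, also an added alternative, its call was kept, as were those of the other 8.

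Among 21 carriers of amino acids and peptides 1 was higher in DKO cells and none was lower, beside 2.65% and 1.93% of all genes tested. This was *Slc1a5* (chr7:16781346-16798274, plus strand), the sodium-dependent exchanger of glutamine and other neutral amino acids and the second most abundant member. It was at 290, 354, 342 and 311 CPM in the DKO mice, against 110, 160, 235 and 229 CPM in the control mice. All DKO values lay above all control values, while the control mice differed among themselves, with control mouse 1 the lowest (log2 fold change 0.82, standard error 0.20, adjusted p = 0.0467, edgeR). The call was lost without any one DKO mouse, without control mouse 2 or 4 (adjusted p up to 0.120, edgeR), with libraries scaled by size alone, in the robust fit, and without the 4 libraries of high neutrophil markers, where the log2 fold change was 0.71 (adjusted p = 0.0750, edgeR).

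Glutamine also enters through *Slc38a2* and *Slc38a1*, which are among the 10 most abundant members and did not pass. *Slc38a2* was at 178 to 224 CPM in DKO and 174 to 198 CPM in control cells (log2 fold change 0.12, adjusted p = 0.496, edgeR), and *Slc38a1* at 161 to 169 CPM in DKO and 135 to 194 CPM in control cells (log2 fold change 0.04, adjusted p = 0.876, edgeR). *Slc7a5* and *Slc3a2*, the light and heavy chains of a leucine exchanger, were picked out after their values were seen. *Slc7a5* averaged 12.9 ± 0.934 CPM in DKO and 12.3 ± 1.27 CPM in control cells, and *Slc3a2* 108 ± 8.33 CPM in DKO and 110 ± 5.75 CPM in control cells (SD, n = 4 each), and neither passed the test. *Slc15a2*, a carrier of di- and tripeptides, had a log2 fold change of 1.92, but its values of 5.85, 7.43, 0.787 and 2.44 CPM in DKO mice overlapped those of 2.74, 1.37, 0.141 and 0.102 CPM in control mice (adjusted p = 0.270, edgeR). *Slc38a10* was at 67.5 to 76.9 CPM in DKO and 52.6 to 71.0 CPM in control cells.

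Among 19 carriers of sugars and monocarboxylates 1 was lower and none was higher in DKO cells, beside 1.93% and 2.65% of all genes tested. *Slc5a9* (chr4:111875377-111902796, minus strand), a sodium-coupled sugar transporter whose human form carries mannose, was at 10.7, 15.9, 6.61 and 11.8 CPM in the DKO mice, against 41.6, 30.7, 54.4 and 49.8 CPM in the control mice. The highest DKO mouse was below the lowest control mouse, with no overlap. This gene had the smallest adjusted p among the members (log2 fold change -1.97, standard error 0.25, adjusted p = 0.00231, edgeR). *Slc2a1*, the widely used glucose transporter, was at 13.2, 11.6, 16.0 and 12.2 CPM in DKO cells and at 10.8, 10.9, 10.6 and 9.87 CPM in control cells (log2 fold change 0.33, adjusted p = 0.202, edgeR). *Slc16a1*, the main lactate and pyruvate carrier of the class and its most abundant member, was at 196 to 238 CPM in DKO and 136 to 236 CPM in control cells (log2 fold change 0.13, adjusted p = 0.676, edgeR). *Slc50a1* averaged 86.5 ± 7.15 CPM in DKO and 90.0 ± 4.06 CPM in control cells, and *Slc37a3* 2.19 ± 0.309 CPM in DKO and 3.35 ± 1.00 CPM in control cells (SD, n = 4 each), and neither passed.

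Carriers of inorganic ions and protons had 1 of 19 members lower and none higher, beside 1.93% and 2.65% of all genes tested. *Slc12a7* (chr13:73763697-73816742, plus strand), a potassium-chloride cotransporter that lets salt out of swollen cells, was at 18.2, 15.7, 16.3 and 15.9 CPM in the DKO mice, against 21.7, 30.4, 31.5 and 22.5 CPM in the control mice. The DKO mice lay close together below all control mice (log2 fold change -0.68, standard error 0.14, adjusted p = 0.0241, edgeR). *Slc12a2*, which brings sodium, potassium and chloride into the cell, was at 2.40, 2.28, 1.88 and 2.25 CPM in DKO and at 2.98, 3.80, 4.78 and 3.48 CPM in control cells, again without overlap, but did not pass (log2 fold change -0.77, adjusted p = 0.0875, edgeR). *Slc12a3*, a sodium-chloride cotransporter best known from the kidney, was the most abundant of the class with 63.1 to 78.9 CPM in DKO and 53.6 to 75.8 CPM in control cells, and did not pass. The call of *Slc12a7* was lost without any one DKO mouse and without control mouse 2 or 3 (adjusted p up to 0.0726, edgeR), and it was kept without the 4 libraries of high neutrophil markers (log2 fold change -0.86, adjusted p = 0.0170, edgeR).

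Carriers of metals and heme had 2 of 24 members lower and none higher, beside 1.93% and 2.65% of all genes tested. *Slc31a2* (chr4:62286429-62298412, plus strand), a copper transporter-like protein of endosomes and lysosomes, was at 21.2, 26.4, 21.996 and 24.8 CPM in the DKO mice, against 46.9, 55.8, 34.6 and 29.2 CPM in the control mice. The groups did not overlap, and the control mice were the more spread (log2 fold change -0.82, standard error 0.19, adjusted p = 0.0325, edgeR). *Slc30a4* (chr2:122681233-122702663, minus strand), a zinc transporter of endosomal vesicles, was at 24.8, 18.3, 21.3 and 8.74 CPM in the DKO mice, against 28.2, 49.0, 42.1 and 40.7 CPM in the control mice. DKO mouse 4 was the lowest of the 8 and control mouse 1 the lowest of its group (log2 fold change -1.13, standard error 0.27, adjusted p = 0.0432, edgeR). The call of *Slc31a2* was lost without any one DKO mouse, without control mouse 2 (adjusted p up to 0.102, edgeR) and without the 4 libraries of high neutrophil markers, where the log2 fold change was -0.92 (adjusted p = 0.0640, edgeR). That of *Slc30a4* was lost without DKO mouse 1, 2 or 3 or control mouse 2, 3 or 4 (up to 0.104, edgeR) and kept without those 4 libraries (log2 fold change -1.07, adjusted p = 0.0190, edgeR).

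Other metal carriers did not pass but had groups that did not overlap. *Slc30a5* was at 573, 514, 568 and 663 CPM in DKO and at 418, 497, 511 and 365 CPM in control cells (log2 fold change 0.37, adjusted p = 0.117, edgeR). *Slc39a11*, a zinc importer, was at 14.0, 13.4, 15.8 and 14.0 CPM in DKO and at 12.7, 7.97, 8.46 and 9.0005 CPM in control cells, without overlap (log2 fold change 0.59, adjusted p = 0.0691, edgeR). It passed in 6 of the 20 alternative fits, among them that without control mouse 1 (adjusted p = 0.0111, edgeR). *Slc40a1*, the iron exporter ferroportin, was at 1.34, 1.88, 4.77 and 5.41 CPM in DKO and at 6.00, 10.8, 5.49 and 6.80 CPM in control cells (log2 fold change -1.12, adjusted p = 0.161, edgeR). Macrophages are rich in ferroportin. The 10 macrophage markers summed to 291 to 738 CPM in DKO and 415 to 1013 CPM in control cells. Most of these reads came from *Lyz2*, at 275 to 701 CPM in DKO and 355 to 972 CPM in control cells. The sums were highest in the 4 libraries of high neutrophil markers. The 10 markers had a median log2 fold change of -1.20, and 1, *Cd5l*, was lower. The *C1qb* level among them was 3.61, 2.77, 10.5 and 12.6 CPM in DKO and 12.0, 33.1, 10.97 and 16.7 CPM in control cells, and its part in the *Slc40a1* values was not tested. Of 13 tested genes of iron uptake and storage, 1 was lower, beside 1.93% of all genes tested. This was the heme oxygenase gene *Hmox1*, at 1.53, 1.62, 4.20 and 5.25 CPM in DKO and 7.88, 20.6, 10.5 and 9.67 CPM in control cells (adjusted p = 0.0309, edgeR).

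Vitamin carriers had 0 of 9 members past the threshold by edgeR and 4 at an unadjusted p under 0.05. *Slc52a3*, a riboflavin transporter, was at 15.6, 11.3, 12.3 and 12.9 CPM in DKO and at 6.53, 9.51, 6.80 and 2.30 CPM in control cells (log2 fold change 1.05, standard error 0.33, adjusted p = 0.0990, edgeR). *Slc19a1*, the reduced folate carrier, was at 24.01, 24.3, 26.6 and 24.3 CPM in DKO and at 33.5, 34.2, 28.9 and 29.4 CPM in control cells (log2 fold change -0.34, standard error 0.10, adjusted p = 0.0753, edgeR). In both genes the groups did not overlap, and both passed with DESeq2, with an adjusted p of 0.0152 for *Slc52a3* and 0.0250 for *Slc19a1*. *Slc23a4*, of the ascorbate and nucleobase carrier family, averaged 1.8045 ± 0.376 CPM in DKO and 1.02 ± 0.323 CPM in control cells (SD, n = 4 each).

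The nucleotide sugar family *Slc35* and the acetyl-CoA carrier gene *Slc33a1*, 22 genes together whose products supply the endoplasmic reticulum and Golgi, had 0 members past the threshold by edgeR, 4 at an unadjusted p under 0.05 and log2 fold changes between -0.45 and 0.47. *Slc35a2*, the UDP-galactose transporter, was at 27.7 to 35.3 CPM in DKO and 23.6 to 27.2 CPM in control cells, without overlap (log2 fold change 0.34, adjusted p = 0.0988, edgeR). *Slc35a4* was at 163 to 174 CPM in DKO and 121 to 157 CPM in control cells (log2 fold change 0.28, adjusted p = 0.101, edgeR). Its exons overlap those of *Apbb3* on the other strand, and whether the counting used strand is not stated in the sources read for this work. *Slc35f5* was at 23.2 to 30.1 CPM in DKO and 15.2 to 25.8 CPM in control cells (log2 fold change 0.47, adjusted p = 0.135, edgeR). *Slc35b2*, which carries the sulfate donor PAPS, averaged 136 ± 18.2 CPM in DKO and 132 ± 20.6 CPM in control cells, and *Slc35b1*, of the endoplasmic reticulum, 94.3 ± 3.97 CPM in DKO and 87.7 ± 4.58 CPM in control cells (SD, n = 4 each).

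Among 9 carriers of other or mixed substrates 0 passed by edgeR, and 0 had an unadjusted p under 0.05. *Slc14a1*, a urea transporter, was at 13.7 to 22.8 CPM in DKO and 9.90 to 15.03 CPM in control cells, and *Slc22a5*, the carnitine transporter, at 7.47 to 8.79 CPM in DKO and 8.90 to 12.7 CPM in control cells. *Slc46a3*, a lysosomal carrier, averaged 4.03 ± 0.405 CPM in DKO and 5.25 ± 0.960 CPM in control cells, and *Slc17a9*, the vesicular nucleotide transporter, 18.8 ± 0.871 CPM in DKO and 19.3 ± 2.08 CPM in control cells (SD, n = 4 each). The 5 members that are not carriers had 0 calls by edgeR and 1 at an unadjusted p under 0.05. This was *Slc9a3r2*, a scaffold that tethers ion exchangers, at 3.93, 4.55, 3.03 and 4.66 CPM in DKO and at 1.46, 1.81, 1.55 and 2.91 CPM in control cells (log2 fold change 1.06, standard error 0.28, adjusted p = 0.0591, edgeR). Its relative *Slc9a3r1* averaged 166 ± 11.3 CPM in DKO and 181 ± 3.96 CPM in control cells, and *Slc7a6os* 27.9 ± 1.17 CPM in DKO and 30.3 ± 2.42 CPM in control cells (SD, n = 4 each).

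**Figure D3:**
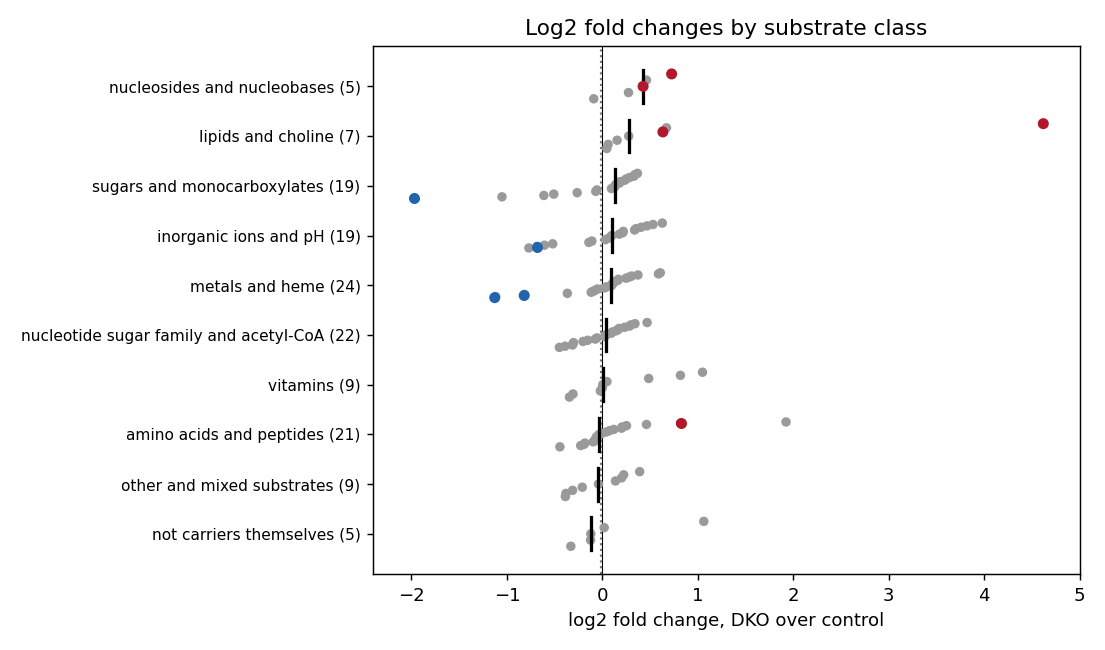
Log2 fold change (DKO over control) of each member by substrate class, with the number of members in parentheses; points are genes (red higher, blue lower, grey did not pass), black bars are class medians and the dotted line is the median of all genes tested. The class medians ran from 0.43 for nucleosides and nucleobases to -0.12 for the genes that are not carriers.

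The class medians of the log2 fold change were 0.43 for nucleosides and nucleobases, 0.28 for lipids and choline, 0.13 for sugars and monocarboxylates, 0.10 for ions, 0.10 for metals, 0.04 for the *Slc35* and *Slc33* genes, 0.00 for vitamins, -0.03 for amino acids, -0.04 for other substrates and -0.12 for the genes that are not carriers. The classes have 5 to 24 members, and no test was made between them. The summed level of amino acid carriers was 1157 to 1258 CPM in DKO and 871 to 1174 CPM in control cells, of which *Slc1a5* alone made up a mean of 324 CPM in DKO and 184 CPM in control cells.

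**Figure D4:**
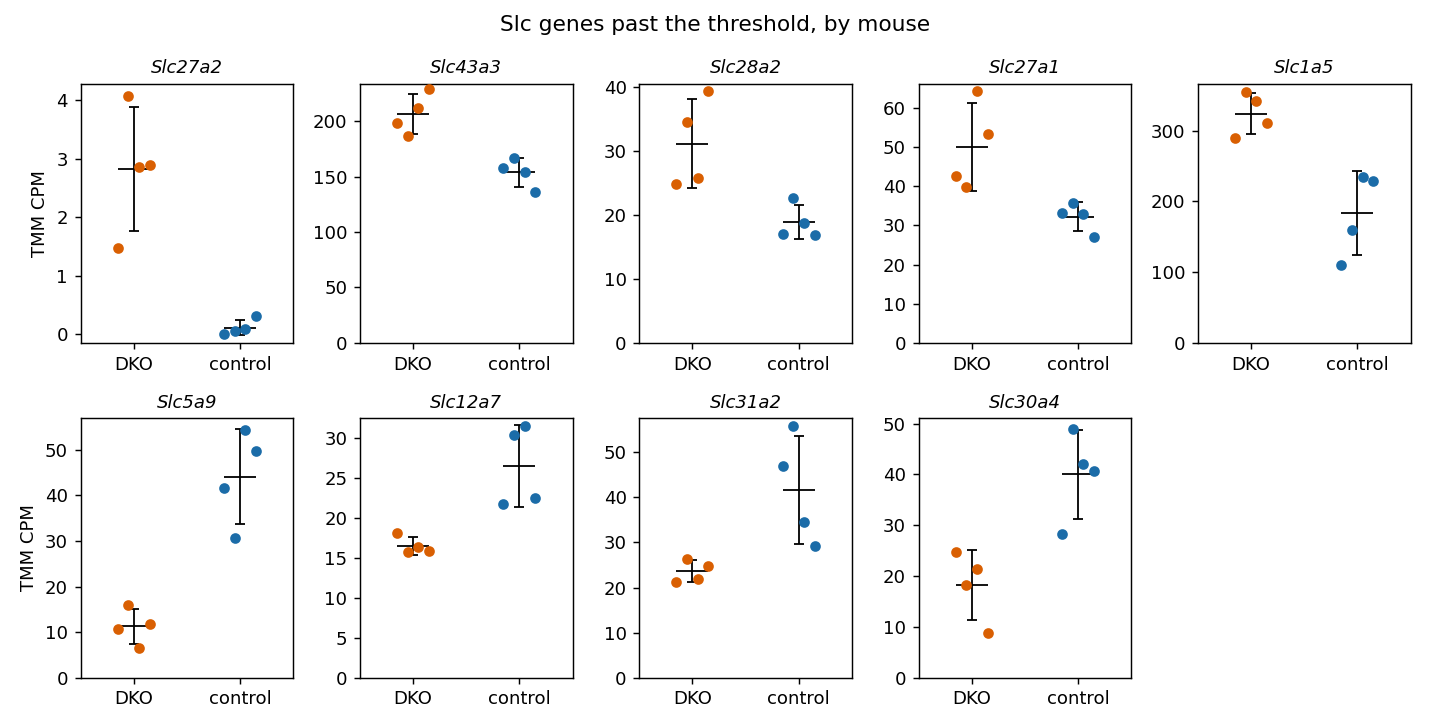
CPM of the 9 members past the threshold in each mouse, DKO left and control right, on separate linear axes; points are mice and black bars the mean ± SD (n = 4 each). In all 9 genes the DKO and control mice did not overlap, but the genes were chosen by a test on these same values.

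Genes around the carriers were read from lists chosen by function. Among 32 tested *Slc* proteins that go by other symbols, 3 were higher and none lower, beside 2.65% and 1.93% of all genes tested. *Spns3*, of the family of sphingolipid and lysolipid transporters, was at 102, 113, 132 and 135 CPM in DKO and at 62.1, 54.6, 49.8 and 39.2 CPM in control cells (log2 fold change 1.23, standard error 0.14, adjusted p = 0.00165, edgeR). *Sfxn3*, of the mitochondrial sideroflexin family of serine carriers, was at 30.7 to 33.6 CPM in DKO and 16.8 to 25.1 CPM in control cells (log2 fold change 0.61, adjusted p = 0.0210, edgeR), and *Mfsd10* at 92.7 to 101 CPM in DKO and 61.8 to 68.8 CPM in control cells (log2 fold change 0.53, adjusted p = 0.00498, edgeR). Of 21 tested partner subunits and ion pumps that set the gradients carriers use, 1 was higher, the proton pump subunit *Atp6v1a*, with 70.4 to 79.9 CPM in DKO and 51.3 to 62.7 CPM in control cells (log2 fold change 0.37, adjusted p = 0.0421, edgeR). Of 31 tested genes of amino acid sensing upstream of mTORC1, 0 passed by edgeR, and their median log2 fold change was -0.03.

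The minimum mean of 1 CPM decided membership at the low end. Just inside stood *Slc2a4rg-ps*, a pseudogene, at a mean of 1.07 CPM of the unscaled totals, *Slc26a6*, an anion exchanger, at 1.19, and *Slc16a3*, a lactate exporter, at 1.26. Just outside stood *Slc5a3*, the myo-inositol transporter, at 0.973, *Slc9a2* at 0.948 and *Slc35f3* at 0.911. Of the 188 rows below the rule, 68 had no count and 32 were tested. All 140 members passed the filter on low counts. A mean under 1 CPM within 1 genotype was found in 1 member for DKO cells (*Slc2a4rg-ps*) and in 2 for control cells (*Slc27a2* and *Slc26a6*).

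*Slc5a9* passed in all 20 alternative fits, with log2 fold changes from -2.19 to -1.67. *Slc27a2* did so too, with log2 fold changes from 4.22 to 5.77, but since it had to differ to be a member this is no sign of stability. The other 7 were lost in 6 to 11 of the 20, and none changed direction. In the plot of adjusted p across fits, the diamonds of these 7 lie just left of the threshold, between 0.0241 and 0.0467. DESeq2 called 11 members higher and 7 lower, among them all 9.

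**Figure D5:**
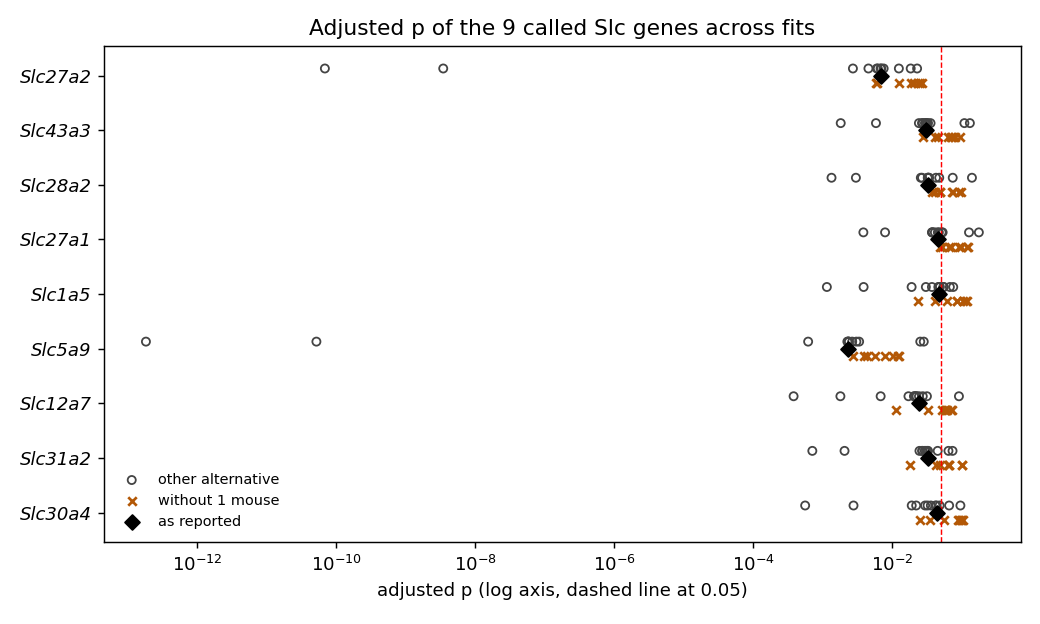
Adjusted p of the 9 called members on a log axis; diamonds are the values reported, crosses the fits without 1 mouse, circles the other alternatives, and the dashed line is the threshold of 0.05. Only *Slc27a2* and *Slc5a9* have every mark left of the line.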

How the data were processed

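The authors deposited raw counts per gene for 8 libraries. Per the methods and labels, RNA was amplified by the SMART-seq protocol, and the reads passed through Trimmomatic for trimming, STAR for alignment and featureCounts for counting, with versions and use of strand not given in the sources used here. Each gene's exon length, also deposited, was used for CPM per kb. The submitters' processing notes name GRCm39, whereas the positions of all 140 members overlap those of the same symbols in GENCODE M21, an annotation of GRCm38, whose coordinates are given. The table holds 0 other columns of per-sample values.

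Members and lists were chosen with earlier results of these data known. Counts were normalized by TMM, filtered with filterByExpr (at least 10 counts in enough libraries and 15 in total) and tested over 12714 genes by quasi-likelihood in edgeR 4.0.16 (limma 3.58.1, R 4.3.3), genotype being the only term. Adjusted p-values are Benjamini-Hochberg values, called at under 0.05, and log2 fold changes are DKO over control with a prior count of 0.125. No 2 libraries of a group agreed within sampling noise, as the same library deposited again would. The labels do not state that the mice are from separate litters or sorts. At this depth, the spread between mice rather than counting error limits most members, whereas levels below 0.1 CPM rest on a few reads. The script was tested on simulated data.

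The text names every member past the threshold, the 10 most abundant by CPM and by CPM per kb, in each class the 3 with the smallest p and the most abundant, the 3 on either side of the minimum level, and members that pass in an alternative fit where 5 or fewer do. Members with an 8mer are named for their match. Classes follow the *Slc* family number, except where single members of a family, such as *Slc43a3*, carry another substrate and were put in its class. Alternatives were limma-voom, DESeq2 1.42.0, edgeR's likelihood ratio test, other scalings and filters, a robust fit, a sex term, the replicate block, a higher minimum level and leaving out each mouse. Alternatives that left out or modelled neutrophil markers were chosen after seeing the data. A few genes that these rules would name are not reported here.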

Additional observations from a re-analysis of the deposited data

Results flagged for a closer look

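*Slc19a1*, the reduced folate carrier, had 26.6 CPM in DKO mouse 3, set apart from the other DKO mice at 24.01 to 24.3 CPM. The gap was 0.887 of the whole range of the group, above Dixon's critical value for 4 samples. This was the only one among 84 groups of 4 mice examined over 42 named members, and chance alone sets apart about 1 group in 20. The mouse still lay below all control mice, at 28.9 to 34.2 CPM.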

How the results depend on the processing

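The count of members higher in DKO was 5 as reported, and it became 8 with edgeR's likelihood ratio test, 11 with DESeq2 and 3 with libraries scaled by size alone. Over all genes tested, 337 were higher as reported, and 519, 674 and 263 in these fits, so the member counts moved with those of all genes. The count of members lower in DKO was 4 as reported and 7 with DESeq2. Without 1 mouse the counts ranged from 1 to 6 higher and from 1 to 5 lower. With the replicate number as a block there was 1 higher (*Slc27a2*) and 1 lower (*Slc5a9*). Deviations of same-numbered mice from their group means correlated at -0.24, 0.09, -0.23 and -0.06, and 0 of 8 mice correlated best with their own number. The uneven neutrophil markers also enter these deviations, so they do not settle whether the numbers pair the mice. Without the 4 libraries of high neutrophil markers there were 3 higher and 5 lower, of which 4 had been called before (*Slc5a9*, *Slc27a2*, *Slc12a7* and *Slc30a4*). *Slc39a11*, *Slc40a1*, *Slc7a7* and *Slc9a3r2* were added. That fit has 2 mice per genotype and leaves out every library with high levels of Y-linked genes. Over all genes it called 445 higher and 334 lower, against 337 and 245 as reported. The count of members higher thus fell while that of all genes rose. With the neutrophil marker sum as a term there were 6 and 4. Limma-voom gave 4 and 4, RLE factors 5 and 4, no filter 5 and 4, the robust fit 4 and 3, and a sex term 7 and 6. The sex term kept all 9 calls. Among the 97 members with a mean of at least 5 CPM there were 4 higher and 4 lower. The cause of these differences was not tested. Leaving out immunoglobulin and hemoglobin genes removed only 1 tested gene, so it could hardly change a call, and it changed none. None of the values of named members reversed in direction past the threshold. Members under 10 CPM have the widest errors, and standard errors of the log2 fold change ran from 0.08 to 0.91 over the members.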
